A study of Homo sapiens with 6 samples.

Results

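The lysosome and autophagy genes examined here are 45 genes, listed by symbol, of 16907 genes with a row in the files. They were taken as the rows whose gene symbol equals a listed name, and all 45 were found. Expression was measured by RNA-seq in the LX-2 line, which derives from human hepatic stellate cells and resembles their activated state. Stellate cells are the liver cells that turn into matrix-producing myofibroblasts. The siControl group received a control siRNA and the siOGT group an siRNA against OGT, the enzyme that adds the sugar O-GlcNAc to intracellular proteins, both at 20 nM and collected at 72 h. Both groups share the LX-2 line, the transfection reagent and the culture medium. Each group had 3 libraries, numbered so that siControl and siOGT libraries of the same replicate form a pair.

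Lysosomes are acidic organelles in which hydrolases digest material delivered by endocytosis or autophagy. A proton pump, the V-ATPase, acidifies the lumen, heavily glycosylated membrane proteins line the organelle, and autophagy proteins build the double-membraned autophagosome that carries cytoplasm to it. Transcription factors of the MiT/TFE family (TFEB, TFE3, MITF) activate many of these genes through the E-box CACGTG, and FOXO factors activate several autophagy genes. When nutrients are plentiful, mTORC1 at the lysosomal surface phosphorylates TFEB and TFE3 and keeps them in the cytoplasm, so their activity is not read from their mRNA level alone. Hepatic stellate cells use autophagy, among other tasks, to consume the lipid of their droplets.

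Because MiT/TFE factors read a short DNA word, the promoter windows of the members were examined for it first. RefSeq windows (GRCh38.p14, 250 bases before to 50 after a start site) were at hand for 35 of the 45 members, and a gene with several windows counted as holding a motif if any window did. The 6 letters CACGTG, a palindrome read alike on both strands, were found in 9 of 35 members (25.7%), against 12.3% of 11456 tested genes and 8.77% of all 27305 genes with a window. The longer form TCACGTG, searched on both strands and overlapping the former, was found in 8 of 35 (22.9%), against 6.93% of tested genes. The FOXO-type word GTAAACA, also searched on both strands, was found in 1 of 35, the cathepsin gene CTSL, against 3.61% of tested genes. By role, the 9 genes with CACGTG were the membrane protein genes LAMP1, CD63 and MCOLN1, the hydrolase genes CTSA, CTSD, GAA and NEU1, the proton pump gene ATP6V0D1 and the autophagy gene ATG14. These matches describe the windows and are not evidence of binding.

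The 250 bases before the start site are shown for MCOLN1 (chr19:7522374-7522623, plus strand), NEU1 (chr6:31862822-31863071, minus strand) and LAMP1 (chr13:113296989-113297238, plus strand), written 5′ to 3′ with CACGTG in capitals. The first 2 were higher in siOGT. The last was not called, and its window held the most matches. Of members with a window, 2 of 9 called higher (22.2%) and 6 of 23 not called (26.1%) held CACGTG. It was also found in 1 of 3 called lower. Among all tested genes with a window it was in 15.6% of those called higher, 10.3% lower and 12.1% not called. In LAMP1 the last of the 6 matches spans the start site and is not complete in the stretch shown.
MCOLN1: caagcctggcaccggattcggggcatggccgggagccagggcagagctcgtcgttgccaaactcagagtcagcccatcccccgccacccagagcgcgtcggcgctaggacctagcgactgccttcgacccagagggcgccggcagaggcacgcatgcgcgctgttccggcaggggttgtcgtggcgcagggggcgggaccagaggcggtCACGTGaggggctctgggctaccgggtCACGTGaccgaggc
NEU1: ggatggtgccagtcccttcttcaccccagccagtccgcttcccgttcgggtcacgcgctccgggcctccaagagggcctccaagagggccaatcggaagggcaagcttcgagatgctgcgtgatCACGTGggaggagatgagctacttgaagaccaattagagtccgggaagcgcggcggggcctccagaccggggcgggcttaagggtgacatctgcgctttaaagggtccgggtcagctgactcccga
LAMP1: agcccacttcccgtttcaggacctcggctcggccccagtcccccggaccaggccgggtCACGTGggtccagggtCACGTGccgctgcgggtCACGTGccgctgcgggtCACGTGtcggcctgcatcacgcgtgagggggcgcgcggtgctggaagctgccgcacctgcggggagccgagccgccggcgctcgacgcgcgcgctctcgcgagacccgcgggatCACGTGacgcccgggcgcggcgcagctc

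Shorter windows of 41 bases around the first match are shown for the other 6 genes, to let their flanking bases be compared. They lie at chr12:55729166-55729206 for CD63, chr20:45891275-45891315 for CTSA, chr11:1763951-1763991 for CTSD, chr17:80101487-80101527 for GAA, chr16:67481194-67481234 for ATP6V0D1 and chr14:55411828-55411868 for ATG14. The CD63 match, from 1 of its 8 windows, is the one in this set not preceded or followed by the base that would make it TCACGTG on either strand.
CD63: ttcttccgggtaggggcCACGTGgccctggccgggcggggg
CTSA: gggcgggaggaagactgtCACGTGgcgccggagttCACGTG
CTSD: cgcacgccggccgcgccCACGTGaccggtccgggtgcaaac
GAA: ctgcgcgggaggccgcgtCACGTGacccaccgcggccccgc
ATP6V0D1: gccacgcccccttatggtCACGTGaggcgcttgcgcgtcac
ATG14: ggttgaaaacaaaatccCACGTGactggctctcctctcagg

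The libraries held between 25996770 and 27966801 counts each, of which the 45 members took between 0.641% and 0.702%. OGT itself, on chromosome X, was at 177, 137 and 121 CPM (counts relative to the TMM-scaled size of the library) in siControl 1 to 3 and at 39.9, 27.0 and 29.2 CPM in siOGT 1 to 3. OGT mRNA was lower by -2.18 on the log2 scale (SE 0.073, adjusted p-value by edgeR 2.71e-12). In these bulk libraries, fewer expressing cells and less RNA per cell cannot be told apart. Stellate cell markers fixed for the check (11 of 12 listed genes in the files) summed to between 7570 and 9060 CPM per library. For marker sums, CPM is relative to the library total without TMM scaling. Of the stellate markers, 2 (TAGLN and SPARC) were called higher and 4 (COL1A1, COL3A1, THY1 and PDGFRB) lower in siOGT. That is 54.5% called, against 25.4% of all genes tested. DES and LUM were close to 0, and ACTA2 was low, between 4.83 and 9.69 CPM per library, and not called. The hepatocyte, leukocyte, endothelial and epithelial lists summed to between 3.06 and 9.39 CPM each in every library, with overlapping ranges in both groups. In these lists 1 gene was called, the endothelial marker VWF, which was lower in siOGT (log2 fold change -0.93, adjusted p-value 0.0108), and its part in the results was not tested.

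All 45 members passed the filter on low counts, with at least 51 counts in every library. Genes were tested with the quasi-likelihood test of edgeR, blocked on replicate number, and a gene was called at a Benjamini-Hochberg adjusted p-value of at most 0.05 over all 14853 genes tested. Of the members, 15 were called, 12 higher and 3 lower in siOGT. The share called was 33.3%, against 25.4% of all genes tested and 29.9% of the 12373 genes averaging 1 CPM or more, which all members reached. By direction, 26.7% were called higher and 6.67% lower, against 12.7% and 12.7% of all genes. Among genes averaging 1 CPM or more these shares were 14.9% and 15%. The members and the other lists below were chosen with earlier results of these data known, so their shares are descriptive. The median log2 fold change of the members was 0.051, against 0.0068 over all genes and 0.0015 over those averaging 1 CPM or more. CPM values of the groups did not overlap for 13 members (28.9%, 8 with siOGT above and 5 below). This compares with 23.9% of all genes and 25.8% of those averaging 1 CPM or more. No member changed as much as 2-fold, the log2 fold changes running from -0.75 for WIPI1 to 0.54 for NEU1.

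**Figure D1:**
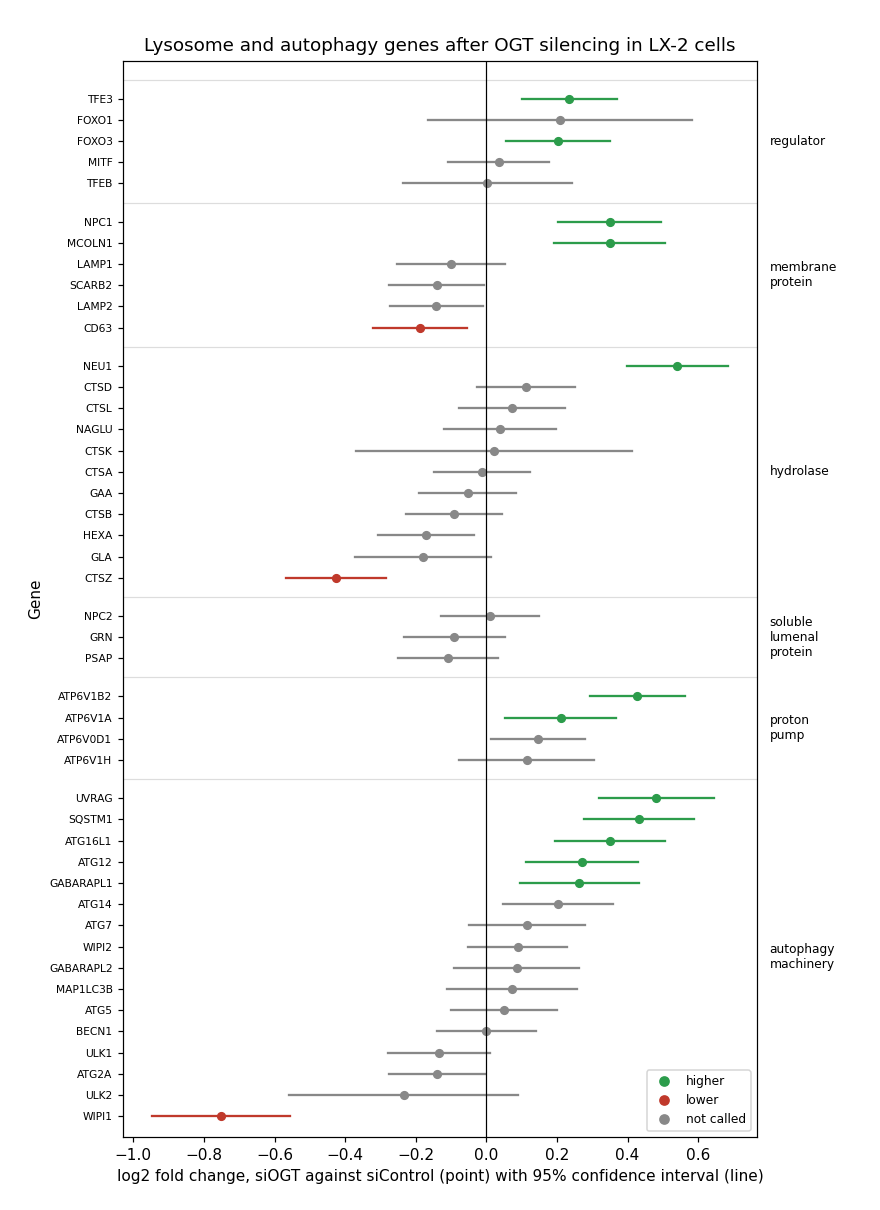
Log2 fold change of siOGT against siControl (x axis, points) with 95% confidence intervals (lines) for the 45 genes (y axis), grouped by role and coloured by call. NEU1 at 0.54 and WIPI1 at -0.75 are the extremes, 12 genes are called higher and 3 lower.

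The calls depended on pairing and, for some genes, on 1 pair. Without the replicate block edgeR called 1 member, WIPI1, and 130 genes in all. At an unadjusted p-value under 0.05 in that fit were 11 of the 45 members and 2691 of all 14853 genes tested. Over the 10 alternative fits, WIPI1 was called in 10, CTSZ and NEU1 in 9, and ATP6V1B2, SQSTM1, ATG16L1 and UVRAG in 8. NPC1 and MCOLN1 were called in 7, TFE3 in 6, FOXO3, CD63, GABARAPL1 and ATG12 in 5, and ATP6V1A in 3. Leaving out pair 1 left 7 members called. None of the 15 called members changed sign in any of these fits.

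Compared per kilobase of the canonical transcript (GENCODE 44), the siControl levels spanned more than the members' changes. GRN, CTSD, CTSA and CD63 were at 352, 314, 275 and 256 CPM per kb, and LAMP1 at 203. Among regulators TFE3 stood at 87.9 CPM per kb, MITF at 13.6 and TFEB at 4.93, so that the MiT/TFE mRNA of these cells was mostly that of TFE3. FOXO3 stood at 13.8 CPM per kb and FOXO1 at 0.638. CTSK, a protease known from osteoclasts, and ULK2 were at 1.94 and 0.576 CPM per kb.

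Among the 5 regulators, TFE3 and FOXO3 were called higher and TFEB, MITF and FOXO1 were not called. That is 40% called, against 25.4% of all genes tested and 29.9% of those averaging 1 CPM or more. The group's median log2 fold change was 0.20. TFE3 (chromosome X, 49028726 to 49043410, minus strand, hg38) was at 286, 285 and 297 CPM in siControl 1 to 3 and at 336, 339 and 346 CPM in siOGT 1 to 3. All siOGT libraries lay above all siControl libraries. TFE3 had a log2 fold change of 0.23 (SE 0.064, adjusted p-value 0.0122), and its pair ratios were 0.23, 0.25 and 0.22 on the log2 scale. The adjusted p-value rose to 0.174 without the block, 0.143 without pair 1 and 0.0546 without pair 2, while the fold change stayed between 0.22 and 0.26 over all alternatives.

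FOXO3, a forkhead factor that induces autophagy genes, was at 108, 94.4 and 98.8 CPM in siControl 1 to 3 and at 139, 107 and 103 CPM in siOGT 1 to 3. The ranges overlapped, and the difference was largest in pair 1 (log2 ratio 0.37, against 0.18 and 0.058 in pairs 2 and 3). The log2 fold change was 0.20 (SE 0.070, adjusted p-value 0.0414), falling to 0.12 without pair 1 (adjusted p-value 0.468). With DESeq2 the adjusted p-value was 0.0833. FOXO3 has a near-identical pseudogene copy in the genome. Whether its value depends on how shared reads were divided was not tested.

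TFEB, the best known regulator of lysosome biogenesis, was at 8.64, 13.1 and 12.7 CPM in siControl 1 to 3 and at 10.6, 10.9 and 12.8 CPM in siOGT 1 to 3. The groups overlapped fully, and the pairs went in different directions (log2 ratios 0.29, -0.27 and 0.0084). For TFEB this gave a log2 fold change of 0.0028 (95% confidence interval -0.24 to 0.24, adjusted p-value 0.990). FOXO1 was at 3.33, 3.54 and 4.19 CPM in siControl 1 to 3 and at 5.07, 3.38 and 4.40 CPM in siOGT 1 to 3, with a log2 fold change of 0.21 (95% confidence interval -0.16 to 0.58, adjusted p-value 0.428). MITF had a log2 fold change of 0.035 (95% confidence interval -0.11 to 0.18).

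Among the 6 membrane protein genes, 2 were called higher and 1 lower (50% called, against 25.4% of all genes). Their median log2 fold change was -0.12. The genes called higher encode transporters. NPC1, which exports cholesterol from the lysosome (chromosome 18, 23506184 to 23586506, minus strand), was at 77.9, 78.6 and 97.1 CPM in siControl 1 to 3 and at 108, 103 and 111 CPM in siOGT 1 to 3. MCOLN1, a calcium-releasing lysosomal channel (chromosome 19, 7522624 to 7534009, plus strand), was at 27.9, 32.8 and 32.0 CPM in siControl 1 to 3 and at 38.5, 39.0 and 40.4 CPM in siOGT 1 to 3. Neither gene showed any overlap between the groups. Both had a log2 fold change of 0.35, with SE 0.069 for NPC1 and 0.075 for MCOLN1 and adjusted p-values of 0.00141 and 0.00243. Without the block these were 0.144 and 0.125, and without pair 1 they were 0.0514 and 0.0567.

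LAMP1, LAMP2 and SCARB2 were not called. LAMP1, one of the most abundant glycoproteins of the lysosomal membrane, was at 499, 572 and 574 CPM in siControl 1 to 3 and at 477, 588 and 474 CPM in siOGT 1 to 3, with log2 pair ratios of -0.064, 0.041 and -0.28. Its log2 fold change was -0.10 (95% confidence interval -0.25 to 0.052, adjusted p-value 0.342). LAMP2, its relative and the receptor of chaperone-mediated autophagy, was at 151, 168 and 156 CPM in siControl 1 to 3 and at 137, 154 and 140 CPM in siOGT 1 to 3. It was below siControl in all 3 pairs but not called (log2 fold change -0.14, adjusted p-value 0.111). SCARB2, an abundant membrane protein of lysosomes also known as LIMP-2, had the same log2 fold change of -0.14, and its groups did not overlap (adjusted p-value 0.117).

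CD63, a tetraspanin of late endosomes and exosomes, was the membrane protein gene called lower. It was at 230, 281 and 276 CPM in siControl 1 to 3 and at 200, 248 and 243 CPM in siOGT 1 to 3. The groups overlapped because pair 1 was low in both, whereas the pair ratios were alike (log2 -0.20, -0.18 and -0.18). CD63 had a log2 fold change of -0.19 (SE 0.063, adjusted p-value 0.0378), with adjusted p-values of 0.426 without the block, 0.256 without pair 1, 0.106 without pair 2 and 0.061 with library totals alone.

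Among the 11 hydrolase genes, 1 was called higher, 1 lower and 9 not (18.2% called, below the 25.4% of all genes). Their median log2 fold change was -0.013. NEU1 (chromosome 6, 31857659 to 31862905, minus strand), the sialidase that removes terminal sialic acids in the lysosome, was at 58.4, 56.9 and 65.2 CPM in siControl 1 to 3 and at 92.0, 76.5 and 94.4 CPM in siOGT 1 to 3. Every siOGT library was above every siControl library. NEU1 rose by 45.4%, a log2 fold change of 0.54 (SE 0.068, adjusted p-value 2.66e-05), with log2 pair ratios of 0.66, 0.43 and 0.53. The adjusted p-value was 0.0511 without the block in edgeR and 0.00101 without the block in DESeq2. CTSA, the protective protein that holds NEU1 in an active complex, had a log2 fold change of -0.013 (95% confidence interval -0.15 to 0.12) and was not called. The difference between these partners was not tested.

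CTSZ (chromosome 20, 58985686 to 59008238, minus strand), which encodes the carboxypeptidase cathepsin Z, was the hydrolase gene called lower. It was at 139, 155 and 162 CPM in siControl 1 to 3 and at 104, 126 and 110 CPM in siOGT 1 to 3. The groups did not overlap. CTSZ fell by 25.5%, or by 0.43 on the log2 scale (SE 0.068, adjusted p-value 2.15e-04), and without the block the adjusted p-value was 0.0848 with edgeR and 0.0078 with DESeq2. NELFCD lies antisense to part of CTSZ; reads were counted by strand.

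The main endopeptidase genes were not called. CTSD, the aspartic protease cathepsin D, was at 536, 695 and 707 CPM in siControl 1 to 3 and at 603, 743 and 741 CPM in siOGT 1 to 3, higher in all 3 pairs with a log2 fold change of 0.11 (95% confidence interval -0.027 to 0.25, adjusted p-value 0.236). CTSL, the cysteine protease cathepsin L, was at 87.5, 79.2 and 100.5 CPM in siControl 1 to 3 and at 104, 82.8 and 94.6 CPM in siOGT 1 to 3 (log2 fold change 0.073, adjusted p-value 0.496). CTSB and CTSK had log2 fold changes of -0.092 and 0.021. The glycosidase genes HEXA, GLA, GAA and NAGLU, whose loss causes storage diseases, ranged from -0.18 for GLA to 0.038 for NAGLU. HEXA came closest to a call (log2 fold change -0.17, adjusted p-value 0.0618), and its groups did not overlap. NPC2, PSAP and GRN, which encode a cholesterol carrier, the saposin precursor and progranulin, had log2 fold changes of 0.011, -0.11 and -0.091. Of these 3 genes 0 were called by edgeR or by DESeq2, and 0 had an unadjusted p-value under 0.05 in edgeR.

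Among the 4 V-ATPase genes, 2 were called, both higher (50% called, against 25.4% of all genes). All 4 had a positive log2 fold change (median 0.18). ATP6V1B2, a nucleotide-binding subunit of the cytosolic V1 sector, was at 147, 99.9 and 110 CPM in siControl 1 to 3 and at 194, 131 and 154 CPM in siOGT 1 to 3. The groups overlapped, since pair 1 was high in both, but the pair ratios were alike (log2 0.41, 0.39 and 0.49). For ATP6V1B2 it came to 0.43 overall (SE 0.064, adjusted p-value 1.24e-04), with an adjusted p-value of 0.228 without the block and 0.00363 without pair 1. ATP6V1A, the catalytic subunit, was at 44.4, 34.4 and 31.8 CPM in siControl 1 to 3 and at 47.7, 38.7 and 40.9 CPM in siOGT 1 to 3. Its log2 fold change was 0.21 (SE 0.075, adjusted p-value 0.0465), and this call was lost without any of the pairs (0.0878, 0.0708 and 0.244 without pairs 1, 2 and 3), without the block (0.476), with DESeq2 (0.154) and with median-ratio size factors (0.0518). ATP6V0D1, a subunit that couples both sectors, had a log2 fold change of 0.15 and groups that did not overlap (adjusted p-value 0.102). For ATP6V1H, a regulatory subunit, the log2 fold change was 0.11 and the pairs were mixed.

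Of the 16 autophagy machinery genes, 5 were called higher, 1 lower and 10 not, with a median log2 fold change of 0.087. That is 37.5% called, against 25.4% of all genes and 29.9% of those averaging 1 CPM or more. SQSTM1 (chromosome 5, 179806398 to 179838078, plus strand) encodes p62, the receptor that links ubiquitinated cargo to autophagosomes. It was at 496, 420 and 577 CPM in siControl 1 to 3 and at 772, 524 and 730 CPM in siOGT 1 to 3. Only siOGT 2 lay within the siControl range, and siControl 2 was itself the lowest library. The log2 fold change was 0.43 (SE 0.074, adjusted p-value 4.25e-04). The log2 ratio was 0.64 in pair 1 against 0.32 and 0.34 in pairs 2 and 3, and without pair 1 the fold change was 0.33 (adjusted p-value 0.0441). Without the block the adjusted p-value was 0.195.

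UVRAG, a component of the Beclin 1 lipid kinase complex that acts in endosome and autophagosome maturation (chromosome 11, 75815210 to 76144232, plus strand), was at 38.8, 30.7 and 38.0 CPM in siControl 1 to 3 and at 62.5, 38.9 and 50.3 CPM in siOGT 1 to 3. The groups were separate by a narrow margin, and pair 1 again had the largest ratio (log2 0.69, against 0.34 and 0.41). UVRAG rose by a log2 fold change of 0.48 (SE 0.078, adjusted p-value 2.54e-04), with an adjusted p-value of 0.171 without the block and 0.0136 without pair 1. BECN1, which encodes Beclin 1, was at 69.1, 64.7 and 71.0 CPM in siControl 1 to 3 and at 70.7, 67.4 and 66.6 CPM in siOGT 1 to 3. Its log2 fold change was -6.67e-04 (95% confidence interval -0.14 to 0.14). ATG14, the subunit that directs the same kinase to autophagosome formation, had a log2 fold change of 0.20 and narrowly missed the call (adjusted p-value 0.0518), being called with library totals alone, without a filter on low counts and without pair 3.

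In the conjugation system that attaches ATG8 proteins to membranes, the members ATG16L1 and ATG12 were called higher. ATG16L1, which places the ligase at the growing membrane, was at 27.2, 25.3 and 27.6 CPM in siControl 1 to 3 and at 34.3, 31.8 and 36.1 CPM in siOGT 1 to 3. The groups did not overlap, with a log2 fold change of 0.35 (SE 0.074, adjusted p-value 0.0022). ATG12, the ubiquitin-like partner of ATG5, was at 32.9, 25.5 and 28.1 CPM in siControl 1 to 3 and at 39.0, 28.8 and 36.7 CPM in siOGT 1 to 3, with a log2 fold change of 0.27 (SE 0.076, adjusted p-value 0.0143). For ATG16L1 the adjusted p-value was 0.118 without the block. For ATG12 it was 0.34 without the block, 0.0798 without pair 1, 0.0839 without pair 3 and 0.0701 with DESeq2. ATG5 and the activating enzyme ATG7 were not called (log2 fold changes 0.051 and 0.12).

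Of the ATG8 family genes among the 45 members, GABARAPL1 was called higher, while MAP1LC3B and GABARAPL2 were not. GABARAPL1 was at 24.8, 23.3 and 21.4 CPM in siControl 1 to 3 and at 31.4, 25.6 and 26.4 CPM in siOGT 1 to 3. All siOGT libraries lay above, with a log2 fold change of 0.26 (SE 0.080, adjusted p-value 0.0219), but the call was lost without pair 1 (0.193), without pair 3 (0.0745), without the block (0.274) and with DESeq2 (0.109). MAP1LC3B, the source of the LC3-II band used to follow autophagy, was at 61.8, 68.4 and 63.2 CPM in siControl 1 to 3 and at 72.6, 56.4 and 75.5 CPM in siOGT 1 to 3. Pair 2 went down (log2 ratio -0.28) while pairs 1 and 3 went up (0.23 and 0.26), and the log2 fold change was 0.073 (95% confidence interval -0.11 to 0.26, adjusted p-value 0.597). Without pair 2 MAP1LC3B was called higher (log2 fold change 0.24, adjusted p-value 0.0385). The near-identical MAP1LC3B2 had between 2 and 14 counts per library. GABARAPL2 had a log2 fold change of 0.086 (adjusted p-value 0.498). Outside the members, GABARAP and MAP1LC3A were not called either (log2 fold changes 0.23 and -0.20, adjusted p-values 0.0506 and 0.309). GABARAP averaged 287 CPM in siControl, above GABARAPL1, MAP1LC3B and GABARAPL2.

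WIPI1 (chromosome 17, 68420948 to 68457513, minus strand) was the member with the largest difference. It encodes a protein that binds phosphatidylinositol 3-phosphate on early autophagosomal membranes. It was at 19.0, 18.1 and 19.7 CPM in siControl 1 to 3 and at 11.8, 10.7 and 11.2 CPM in siOGT 1 to 3. The groups were far apart and the pairs close to each other (log2 ratios -0.68, -0.75 and -0.81). WIPI1 fell by 40.6%, or by 0.75 on the log2 scale (SE 0.093, interval -0.95 to -0.56, adjusted p-value 2.16e-05), and the call held without the block (0.0375). WIPI1 overlaps ARSG on the opposite strand. Of the other called members, CTSZ, NPC1, SQSTM1 and ATG12 also overlap protein-coding genes on the opposite strand. WIPI2, a relative of WIPI1 that recruits ATG16L1, had a log2 fold change of 0.088 (95% confidence interval -0.053 to 0.23) and was not called.

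The initiating kinases were not called. ULK1 was at 82.5, 84.4 and 74.3 CPM in siControl 1 to 3 and at 80.6, 79.3 and 61.1 CPM in siOGT 1 to 3, below siControl in all 3 pairs, with a log2 fold change of -0.13 (95% confidence interval -0.28 to 0.011, adjusted p-value 0.168). ULK2 and the lipid transfer protein gene ATG2A had log2 fold changes of -0.23 and -0.14. The ATG2A groups did not overlap (adjusted p-value 0.127).

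**Figure D2:**
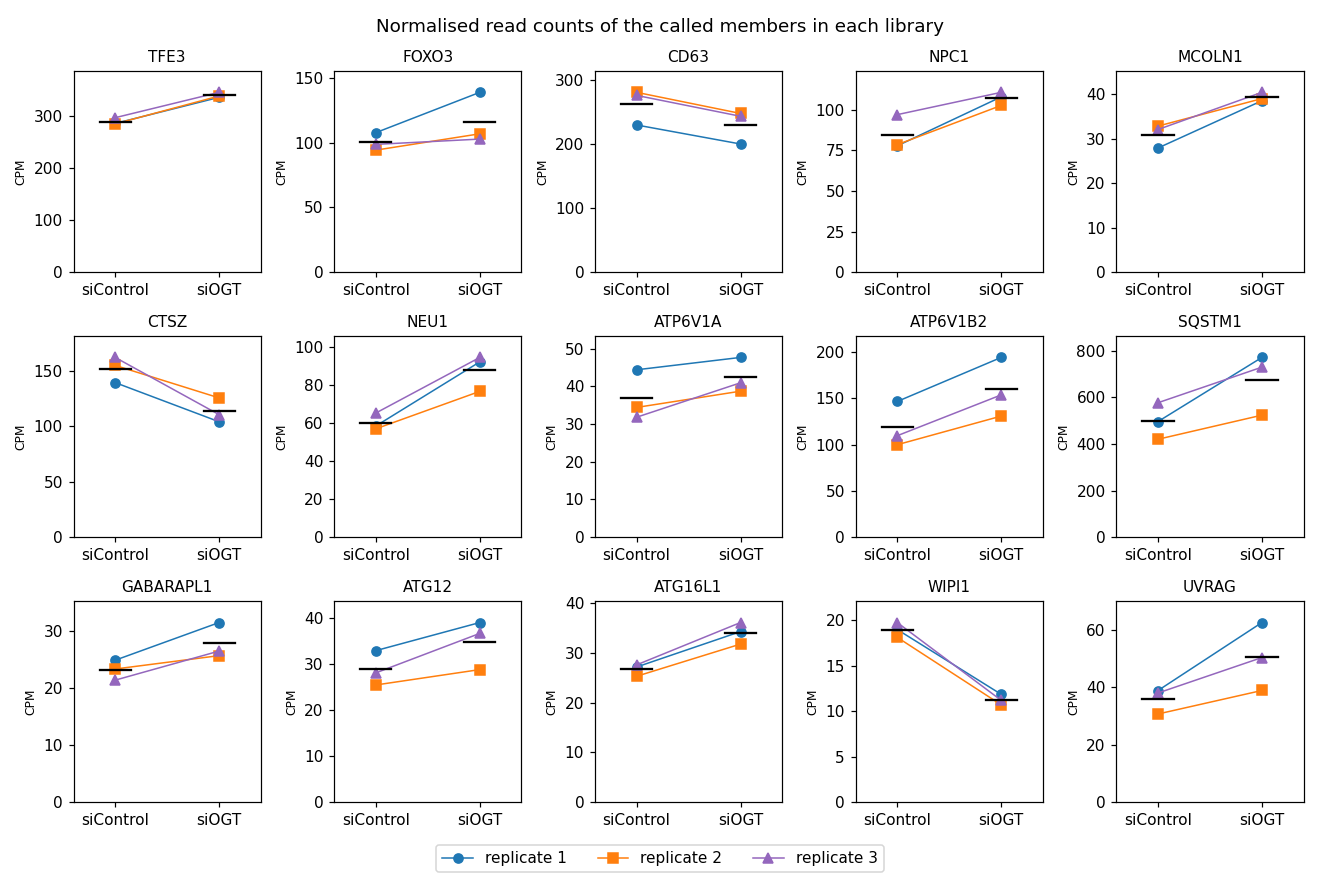
CPM (y axis, from 0) of the 15 called genes in each library, by group (x axis), with lines joining the libraries of a replicate and black bars for group means. Lines run the same way in all 3 pairs of every panel, and WIPI1 falls from between 18.1 and 19.7 CPM to between 10.7 and 11.8 CPM.

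The other genes of the pathway were examined in 6 lists of 144 genes, all of which were tested. Of these, 45 were called (31.2%, against 25.4% of all genes tested and 29.9% of genes averaging 1 CPM or more), which is close to the share among expressed genes. They divide into 34 higher (23.6%) and 11 lower (7.64%), against 12.7% of all genes in each direction, with a median log2 fold change of 0.097. Differences between the lists were not tested. Without the block 2 were called, NRBF2 and SESN2, and without pair 1 the number was 24. Among 34 other hydrolases 1 was called higher and 6 lower (20.6% called, below the 25.4% of all genes). The 2 lowest were CTSV, which encodes the protease cathepsin V (log2 fold change -0.73, adjusted p-value 0.00254), and the carboxypeptidase gene SCPEP1 (-0.39, adjusted p-value 0.00302). The aminopeptidase gene DPP7 was higher (0.46, adjusted p-value 0.0346), but not without pair 2 or 3 (0.174 and 0.134) or with DESeq2 (0.17). Among 22 other membrane proteins 6 were called, each of them higher. That is 27.3%, between the 25.4% of all genes and the 29.9% of genes averaging 1 CPM or more. CTNS, the cystine exporter (log2 fold change 0.49, adjusted p-value 1.77e-04), and MFSD8, a lysosomal transporter (0.39, adjusted p-value 0.00726, and 0.0729 without pair 3), had the largest values.

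Among 14 other V-ATPase subunits and accessory proteins 6 were called higher and 1 lower (50% called, against 25.4% of all genes), with a median log2 fold change of 0.19. ATP6V1F was at 198, 181 and 152 CPM in siControl 1 to 3 and at 245, 208 and 259 CPM in siOGT 1 to 3 (log2 fold change 0.42, adjusted p-value 0.00176, and 0.0705 with DESeq2). ATP6V0B, part of the proton-carrying ring, had a log2 fold change of 0.40 (adjusted p-value 8.1e-04). TCIRG1, the alternative a3 subunit best known from osteoclasts, was at 94.0, 90.9 and 81.5 CPM in siControl 1 to 3 and at 61.2, 68.4 and 60.0 CPM in siOGT 1 to 3, a log2 fold change of -0.49 (adjusted p-value 6.21e-05). Its groups did not overlap.

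**Figure D3:**
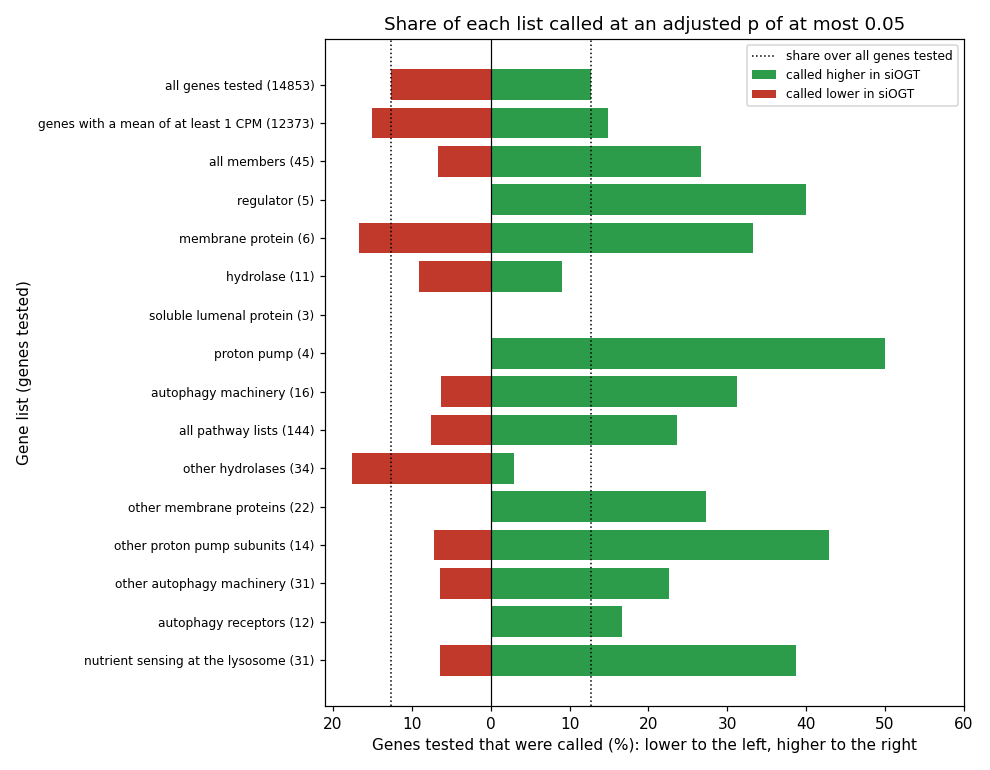
Share of genes called (x axis, %, lower to the left and higher to the right) in each gene list (y axis, with the number tested), dotted lines marking the 12.7% of all genes tested in each direction. Other hydrolases have more genes called lower (6) than higher (1), whereas the proton pump and nutrient sensing lists have more called higher.

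Among 31 other autophagy genes 7 were called higher and 2 lower. That is 29% called, against 25.4% of all genes and 29.9% of those averaging 1 CPM or more. NRBF2, a further subunit of the ATG14 kinase complex, was at 9.99, 10.4 and 12.2 CPM in siControl 1 to 3 and at 17.7, 18.1 and 21.2 CPM in siOGT 1 to 3, a log2 fold change of 0.80 (SE 0.092, adjusted p-value 1.11e-05) called in all 10 alternatives. ATG4C, a protease that processes ATG8 proteins, had a log2 fold change of 0.47 (adjusted p-value 0.012, but 0.0876 and 0.0692 without pairs 2 and 3 and 0.0821 with DESeq2). ATG16L2, a relative of ATG16L1, and TECPR1, a tether at the lysosome, were lower (log2 fold changes -0.28 and -0.22, adjusted p-values 0.0316 and 0.0217), and both lost the call without pair 1 (0.279 and 0.127), and with DESeq2 (0.154 and 0.0571), TECPR1 also without pair 3 (0.0546). Of 12 cargo receptor genes 2 were called (16.7%, below the share of all genes), TOLLIP and SEC62, both higher (0.29 and 0.21, adjusted p-values 0.00567 and 0.0195). Without pair 1 these rose to 0.152 and 0.134, and SEC62 was at 0.0653 without pair 2.

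Among 31 genes listed under nutrient sensing at the lysosome 12 were called higher and 2 lower (45.2% called, against 25.4% of all genes and 29.9% of those averaging 1 CPM or more), with a median log2 fold change of 0.18. The list also holds TFEC, a gene of the MiT/TFE family, which was not called. RRAGD, one of the Rag GTPases that bring mTORC1 to the lysosome, was at 6.21, 2.63 and 4.76 CPM in siControl 1 to 3 and at 10.7, 4.79 and 7.53 CPM in siOGT 1 to 3. The groups overlapped, yet each pair rose, and the log2 fold change was 0.76 (SE 0.13, adjusted p-value 5.68e-04). SESN2, a leucine sensor that also responds to stress, was at 39.9, 35.9 and 41.4 CPM in siControl 1 to 3 and at 65.8, 53.1 and 66.5 CPM in siOGT 1 to 3 (log2 fold change 0.66, adjusted p-value 5.24e-06) and was called in all 10 alternatives. RRAGC, FLCN and FNIP1, which encode the partner of RRAGA or RRAGB and the complex acting on RRAGC and RRAGD, were singled out after their values were seen. Their log2 fold changes were 0.52, 0.50 and 0.43, with adjusted p-values of 2.62e-05, 1.05e-04 and 2.15e-04, and all lost the call in edgeR without the block. The genes called lower were LAMTOR4, a subunit of the Ragulator scaffold (log2 fold change -0.39, adjusted p-value 0.0216), and RRAGA (-0.25, adjusted p-value 0.0112). Both were not called without pair 1 (0.25 and 0.147), and LAMTOR4 also not with DESeq2 (0.111), where RRAGA was called (0.0308).

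**Figure D4:**
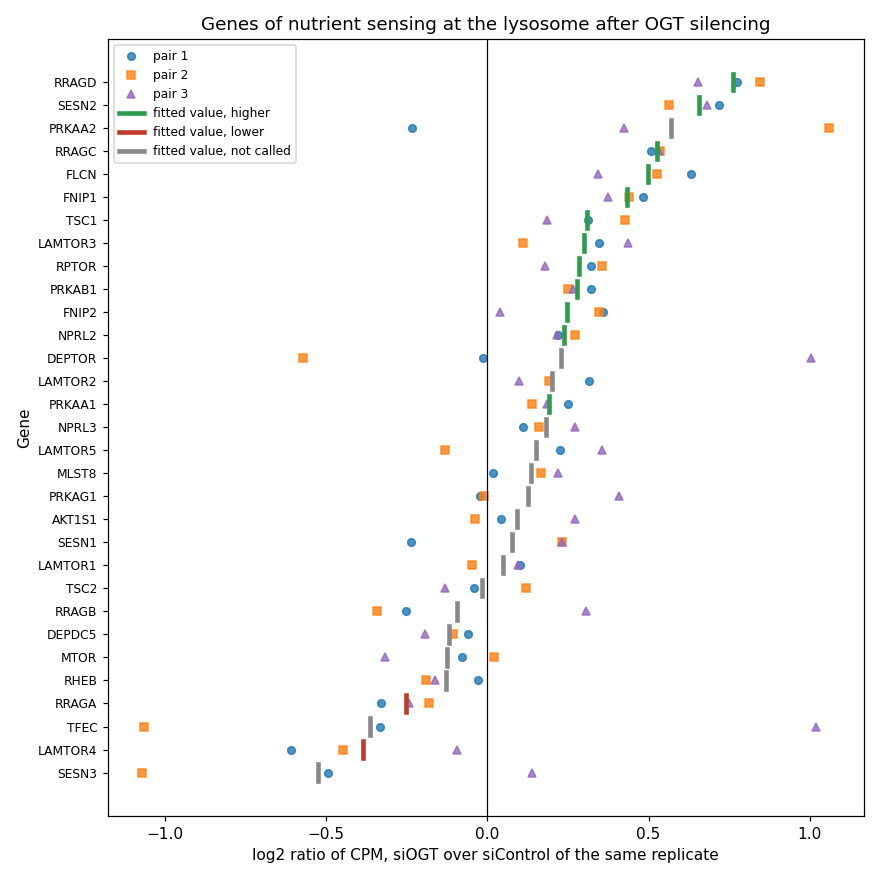
Log2 ratio of siOGT over siControl within each pair (x axis, symbols) and fitted log2 fold change (bars, coloured by call) for the 31 genes of the nutrient sensing list (y axis). RRAGD, SESN2, RRAGC, FLCN and FNIP1 lie to the right of 0 in all 3 pairs, while genes with few counts such as PRKAA2 and TFEC scatter widely.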

How the data were processed

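Polyadenylated RNA of 6 LX-2 libraries was sequenced paired-end. Per the study's methods and processing notes, reads were aligned to hg38 with Bowtie2 2.3.5.1 and counted by RSEM 1.3.1 using strand. The values the authors deposited are expected counts, which are estimated and not normalised, and reads shared by several genes are divided. A table of the authors' own comparison (means, fold changes, p-values) was not used.

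Expected counts were rounded. A summed count of at least 10 was required, which 14853 genes met and 2054 did not. The test was the quasi-likelihood F test in edgeR 4.0.16 (R 4.3.3), with TMM scaling and the replicate number as a block, after the study's paired design. Same-numbered libraries also deviated together from their group means (correlations 0.688, 0.525 and 0.332 across 12373 genes). Adjusted p-values were computed over all genes tested by the Benjamini-Hochberg method. SEs and 95% confidence intervals follow from the F statistic, and pair ratios use a prior count of 2. The study describes independent experiments, and libraries of one group differed beyond counting noise (chi-square per degree of freedom at least 17). In simulated data with 14853 genes, 97% of genes changed 2-fold were recovered, all drawn from genes averaging at least 1 CPM. No member changed as much as 2-fold, so this share does not give the recovery of changes as small as theirs.

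Alternatives were DESeq2 1.42.0, no block, other scalings and filters, and leaving out each pair. Positions are from GENCODE 44 (hg38), promoter windows from RefSeq. All members are accounted for. Values per library are given for called members (at most 6 per role with the largest changes) and a fixed set, and in other lists the 2 called genes with the largest change in each direction are named. Members and lists were chosen with earlier results of these data known.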

Additional observations from a re-analysis of the deposited data

How the results depend on the processing

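OGT remained lower and called under all 10 alternatives, with log2 fold changes from -2.25 to -2.11. Pairing mattered most. With no replicate block, 130 genes (71 higher, 59 lower) were called by edgeR, with 1 member (0 higher, 1 lower) and 2 other pathway genes (2 higher, 0 lower). At an unadjusted p-value under 0.05 in that fit, 9 members were higher and 8 other pathway genes lower. Over all genes tested these counts were 1366 higher and 1325 lower. DESeq2 without the block, an alternative chosen after the data were seen, called 849 genes (388 higher, 461 lower), 3 members (1 higher, 2 lower) and 10 other pathway genes (8 higher, 2 lower). At an unadjusted p-value under 0.05 in that fit, 8 members were higher, against 1268 of all genes. DESeq2 with the block called 2415 genes (1117 higher, 1298 lower), 11 members (8 higher, 3 lower), all among the 15, and 32 other pathway genes (26 higher, 6 lower). Leaving out 1 pair gave from 1803 to 3439 genes (858 to 1652 higher, 945 to 1787 lower), from 7 to 13 members (5 to 10 higher, 2 to 3 lower) and from 24 to 43 other pathway genes (20 to 32 higher, 4 to 11 lower), the lowest counts without pair 1. The cause was not tested. Changed scaling or filters left from 14 to 16 members called. Signs turned for 9 members, none of them called in the fit reported above, where the largest of their values was that of ATP6V1H (0.11). TFEB was at -4.12e-04 with median-ratio size factors, -0.010 with no block and -0.013 with DESeq2 and no block, and ranged from -0.13 to 0.14 when a pair was left out, passing through -0.0077. CTSA was at 0.0097 and BECN1 at 0.022 with library totals alone, and BECN1 at 9.66e-04 with filterByExpr. Leaving out a pair also turned the sign of MITF (-0.020 to 0.076), CTSA (-0.041 to 1.41e-04), CTSK (-0.018 and -0.017 to 0.092), CTSL (-0.014 to 0.15), NPC2 (-0.034 and -0.0087 to 0.065), ATP6V1H (-8.56e-04 to 0.24), MAP1LC3B (-0.027 and -0.010 to 0.24) and BECN1 (-0.033 to 0.040). MAP1LC3B was called at its highest value, without pair 2. With 3 pairs the intervals are wide, those of TFEB still allowing -0.24 to 0.24, so missing a call does not show that a gene stayed the same.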
